A study of Cucumis sativus with 25 samples.

Results

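The conserved plant miRNAs csa-miR398, csa-miR397 and csa-miR408, all linked to copper, were followed in the shoot apex of cucumber. They were chosen by name, as the miR398 row of the deposited small RNA count table and the rows of 2 families that share its copper link, and all 3 were present among the 249 miRNAs of that table, 68 of which belong to known families. The plants were seedlings of the inbred line 9930 with 4 unfolded true leaves, grown in climate chambers under 4 treatments. HL was high temperature with a long photoperiod (16 h light at 28 °C and 8 h dark at 25 °C), HS was high temperature with a short photoperiod (8 h light at 28 °C and 16 h dark at 25 °C), LL was low temperature with a long photoperiod (16 h light at 20 °C and 8 h dark at 15 °C) and LS was low temperature with a short photoperiod (8 h light at 20 °C and 16 h dark at 15 °C). All plants were kept at the same humidity. Each treatment had 3 biological replicates, each pooled from many apices of 1 mm, with 1 small RNA library and 1 mRNA library for each replicate number. How many chambers served each treatment is not given in the sources used here, so chamber and treatment cannot be told apart.

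In plants, a miRNA guides a silencing complex to complementary mRNAs, which are then cut or translated less. In Arabidopsis, miR398, miR397 and miR408 accumulate when copper is scarce, under the copper-sensing transcription factor SPL7, and reduce copper proteins that the plant can spare. The known Arabidopsis targets of miR398 include Cu/Zn superoxide dismutases, which remove superoxide, with their copper chaperone. The miR397 targets are laccases, copper oxidases that act in lignin formation, and the miR408 targets are plantacyanin and some laccases. miR398 is also known there to respond to oxidative stress and temperature. These roles are background from Arabidopsis and were not measured here.

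The sequences that the deposited table gives for the 3 rows are shown first, because they state which strand of each miRNA duplex was named for counting. Each is written 5′ to 3′ with T for U, and the capitals mark the seed, bases 2 to 8.
miR398: gAGTGAACctgagaacacaaga
miR397: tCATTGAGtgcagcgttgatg
miR408: gCGGGGAAcagacagagcatg
The miR398 sequence had 22 bases, and those of miR397 and miR408 had 21 each. The 3 seeds differed from one another, and each was carried by 0 of the other sequences among the 249. The GC content was 61.9% for miR408, 47.6% for miR397 and 45.5% for miR398.

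The hairpin of miR398 from the study's precursor table is printed to show where the counted sequence lies. The capitals mark the deposited sequence, at bases 21 to 42, and the opposite arm, at bases 105 to 125 of the 145 bases.
csa-miR398a: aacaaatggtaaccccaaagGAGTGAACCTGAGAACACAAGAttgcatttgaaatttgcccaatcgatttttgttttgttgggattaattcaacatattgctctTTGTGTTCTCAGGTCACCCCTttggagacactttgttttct
opposite arm: tTGTGTTCtcaggtcacccct
The deposited sequence lay on the 5′ arm. Folding with RNAfold gave a hairpin of -54.1 kcal/mol in which 19 of its 22 bases were paired, 18 of them with the opposite arm. The opposite arm is the one that carries the guide strand of miR398 in Arabidopsis, and its seed was likewise found in 0 of the table's other sequences. The guide of miR408 in Arabidopsis comes from the 3′ arm as well, and that of miR397 from the 5′ arm. The miR397 hairpin had 92 bases and held the deposited sequence at bases 11 to 31, on the 5′ arm. Each name has 1 row in the table, and whether tags of both arms were summed into it is not stated in the sources used here. The paper's list of known miRNAs gives many more 5′ than 3′ arm tags for miR398 and miR408, and for miR397 a 5′ arm only. Most of the tags named miR398 or miR408 may thus come from the 5′ arm, not from the arm of the Arabidopsis guide. The values below are therefore the tags assigned to the name miR398, miR397 or miR408, and the share of each arm was not analysed here.

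The 12 small RNA libraries had 16634520 to 17659346 clean reads, and counts were expressed as CPM, the count divided by the clean reads and multiplied by 1000000. The tags assigned to all miRNAs summed to 609415 to 1551482 per library, the lowest in HL replicate 1 (3.604% of its clean reads) and the highest in LS replicate 1 (8.969%). These shares overlapped between the temperatures. The 3 miRNAs differed widely in abundance. miR398 had 16401 tags over the 12 libraries and ranked 32 of 249, miR408 had 2627 tags and ranked 93, and miR397 had 195 tags and ranked 167. Among the 68 known families the ranks were 21, 42 and 64. Counting precision followed from this. The smallest miR397 count, 7 tags in HL replicate 2, has an exact Poisson 95% interval of 2.81 to 14.4 tags, whereas the smallest miR398 count, 491 tags in HL replicate 3, has an interval of 448.5 to 536.4 tags. Both intervals cover counting error only.

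miR398 was the member that separated the temperatures. Its counts were 548, 632 and 491 in HL and 522, 633 and 700 in HS, against 1724, 1508 and 1770 in LL and 3297, 2154 and 2422 in LS. In CPM, the HL libraries had 32.4, 37.9 and 29.0 and the HS libraries 29.6, 36.4 and 41.4, whereas the LL libraries had 102.2, 85.4 and 106.4 and the LS libraries 190.6, 127.1 and 143.8. Every warm library thus lay below every cool library, since the highest warm value was 41.4 CPM and the lowest cool value 85.4 CPM. Of the 248 miRNAs tested, 20 (8.06%) had all 6 low-temperature libraries above all 6 high-temperature libraries. The separation was also present when counts were scaled to the summed miRNA tags in place of the clean reads, with 491.8 to 920.6 tags per 1000000 miRNA tags in the warm libraries and 1788 to 3174 in the cool ones. In such bulk tissue, fewer cells that make a miRNA and less of it per cell cannot be told apart.

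**Figure D1:**
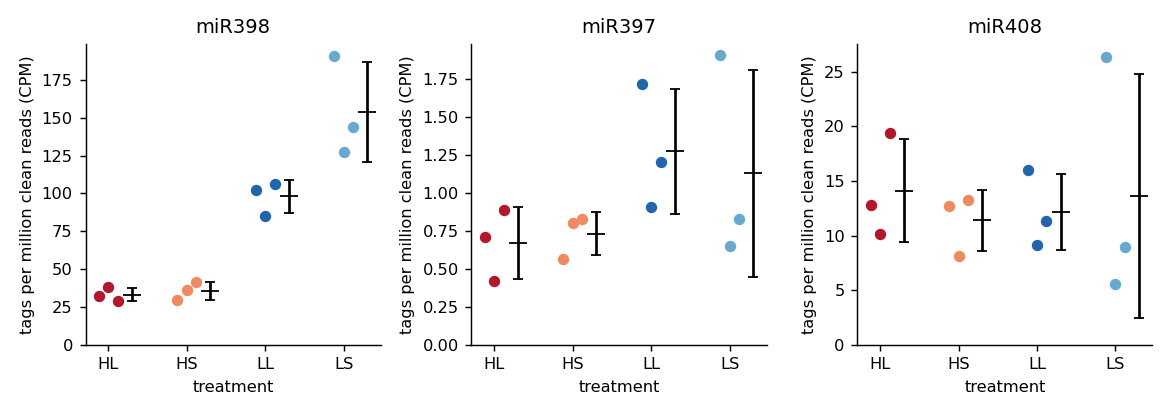
CPM of miR398, miR397 and miR408 in each small RNA library (points), by treatment, with the mean and SD of 3 replicates beside each group; the 3 panels have different vertical scales. For miR398 the HL and HS points lie between 29.0 and 41.4 CPM and the LL and LS points between 85.4 and 190.6 CPM, while the LS points of miR397 and the LL and LS points of miR408 overlap the HL and HS points.

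Averaged over both photoperiods, miR398 was 3.57-fold lower at high than at low temperature (95% interval 2.86 to 4.46). On the log2 scale the change was -1.83 ± 0.15 (SE; adjusted p = 2.48e-06, edgeR quasi-likelihood test with Benjamini-Hochberg adjustment over 248 miRNAs). It passed the thresholds of the study, a change over 2-fold with an unadjusted p under 0.001. Of all miRNAs tested, 7.26% passed them for temperature in either direction and 6.05% as lower, 15 of 18 calls, against 12 of 18 with TMM scaling and 15 of 21 with DESeq2. miR398 had the smallest p of the 248, and 5 miRNAs had a larger fall. The change was called within each photoperiod. Under the long photoperiod, HL vs LL, the log2 change was -1.57 (95% interval -2.02 to -1.12), where 4.03% of miRNAs were called and 2.82% as lower, 7 of 10 calls, against 5 of 6 with the summed miRNA tags as library size. Under the short photoperiod, HS vs LS, it was -2.10 (95% interval -2.56 to -1.65), where 4.03% were called and 3.23% as lower, 8 of 10 calls, against 7 of 15 with either TMM scaling or DESeq2. miR398 was among the lower calls under every scaling. The estimated fall was larger by 0.54 on the log2 scale under the short photoperiod, but the interval of this difference, -0.09 to 1.16, included 0 (interaction, adjusted p = 0.937 by the same edgeR test). For the interaction 0% of the 248 miRNAs were called by edgeR, 11 had an unadjusted p under 0.05, and DESeq2 called 0, with 7 at that limit.

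**Figure D2:**
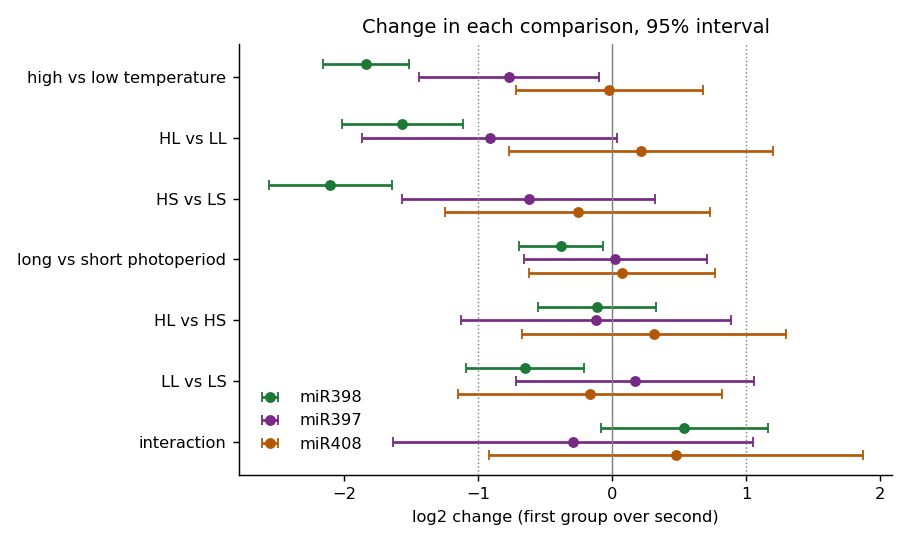
Log2 change of miR398, miR397 and miR408 in 7 comparisons, with 95% intervals from the edgeR fit; the first group of each pair is on top of the ratio, the interaction is the HL vs LL change minus the HS vs LS change, and the dotted lines mark 2-fold. The miR398 intervals lie below -1 for the 3 temperature comparisons, and the miR408 intervals include 0 in all 7.

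Photoperiod was associated with smaller differences in miR398. At low temperature, the LL libraries had 85.4 to 106.4 CPM and the LS libraries 127.1 to 190.6 CPM, without overlap. Of the 248 miRNAs, 4.84% were lower in LL than in LS without overlap. Scaled to the summed miRNA tags the groups overlapped, with 1788 to 2321 per 1000000 miRNA tags in LL and 2125 to 3174 in LS. The LL vs LS log2 change of -0.65 (95% interval -1.09 to -0.21) corresponded to a level 1.57-fold lower in LL and had the smallest p of the comparison, but it did not reach 2-fold and its adjusted p was 0.658 (edgeR, Benjamini-Hochberg). In LL vs LS 0% of the 248 miRNAs were called by edgeR, with 13 at an unadjusted p under 0.05, and DESeq2 called 0, with 8 at that limit. At high temperature, HL and HS overlapped, with 29.0 to 37.9 CPM in HL and 29.6 to 41.4 CPM in HS, and the log2 change was -0.11 (95% interval -0.56 to 0.33), in a comparison that called 0.806% of miRNAs. Averaged over both temperatures, the log2 change between long and short photoperiod was -0.38 (95% interval -0.69 to -0.07; adjusted p = 0.555, edgeR), and 0.806% of miRNAs were called.

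The photoperiod values of miR398 moved with the scaling. Over all miRNAs the median photoperiod change was -0.05, next to the -0.38 of miR398. With the summed miRNA tags as the library size that median was 0.32, and the log2 change of miR398 was 0.03. miR398 therefore lay below the median of the table under both scalings, but the sign of its own value was not the same in each. In LL vs LS it was below 0 under every scaling tried, though at -0.37 with the summed miRNA tags, and in HL vs HS it was 0.43 with the summed miRNA tags.

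miR397 was rare. Its warm and cool libraries overlapped, through the LS libraries. It had 12, 7 and 15 tags in HL and 10, 14 and 14 tags in HS, against 29, 16 and 20 tags in LL and 33, 11 and 14 tags in LS. The warm libraries thus had 7 to 15 tags and the cool ones 11 to 33. Mean levels were 0.672 ± 0.235 CPM (HL) and 0.733 ± 0.144 CPM (HS) in the warm treatments, against 1.28 ± 0.412 CPM (LL) and 1.13 ± 0.680 CPM (LS) in the cool ones (SD, n = 3 each). Between HL and LL the libraries did not overlap, with 0.419 to 0.886 CPM in HL and 0.906 to 1.72 CPM in LL, as for 19% of the miRNAs tested that were lower in HL. The margin was narrow, with 15 tags as the highest HL count and 16 as the lowest LL count. The temperature log2 change of -0.77 had an interval of -1.44 to -0.10 and an unadjusted p of 0.0273, and it was not called (adjusted p = 0.106, edgeR). Its estimate was below 0 in both photoperiods, at -0.91 in HL vs LL (95% interval -1.86 to 0.03) and -0.62 in HS vs LS (95% interval -1.57 to 0.32). Without LS replicate 1 the HS vs LS value was -0.02 and the temperature value -0.46. For photoperiod the value was 0.02 (95% interval -0.66 to 0.70), and its sign changed when single libraries were left out. With the summed miRNA tags it was 0.45, and the LL libraries (22.4 to 30.1 per 1000000 miRNA tags) then lay above the LS libraries (14.8 to 21.3), as for 4.84% of the miRNAs tested, but neither photoperiod nor LL vs LS was called for miR397.

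In CPM, miR408 did not separate any pair of treatments. Its CPM values were 12.8, 10.2 and 19.4 in HL and 12.7, 8.16 and 13.3 in HS, against 16.0, 9.17 and 11.3 in LL and 26.4, 5.55 and 8.97 in LS. In CPM the 4 groups overlapped, and the LS libraries alone covered both the highest and the lowest of the 12 values. The temperature log2 change was -0.02 (95% interval -0.72 to 0.68; adjusted p = 0.961, edgeR), an interval that leaves room for changes of up to 1.60-fold higher or 1.64-fold lower. The estimates were 0.22 in HL vs LL, -0.26 in HS vs LS, 0.31 in HL vs HS and -0.16 in LL vs LS, and each interval included 0. Most of these signs rested on single libraries. Without LS replicate 1 the temperature value was 0.43, the HS vs LS value 0.65, the LL vs LS value 0.74 and the interaction -0.43, against 0.48 with all libraries, and none of these was called. The temperature value also turned above 0, to between 0.01 and 0.10, without HL replicate 1, HL replicate 2, HS replicate 2 or LL replicate 1. Scaled to the summed miRNA tags, HL had 247.6 to 356.1 per 1000000 miRNA tags and HS 158.1 to 220.1, without overlap, as for 21.4% of the miRNAs tested that were higher in HL. On that scale the miR408 change was 0.81 in HL vs HS and 0.56 for photoperiod, against 0.07 for photoperiod with the clean reads, and neither was called (adjusted p = 0.403 and 0.509, edgeR).

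**Figure D3:**
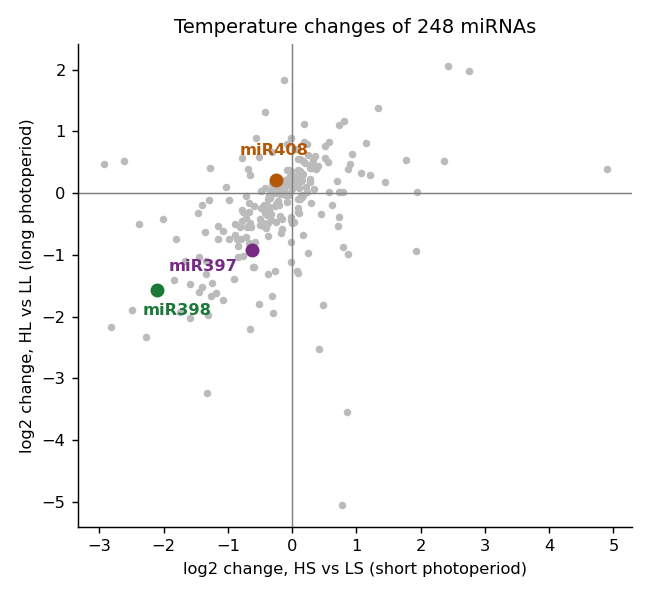
Log2 change of each of the 248 tested miRNAs in HS vs LS (horizontal) and in HL vs LL (vertical), from the edgeR fit, with the 3 copper-linked miRNAs in colour. miR398 stands at -2.10 and -1.57, miR397 at -0.62 and -0.91 and miR408 at -0.26 and 0.22.

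Within LS, the 3 members had the same highest and lowest library in CPM. LS replicate 1 had the highest and LS replicate 2 the lowest value of that treatment for all 3. In log2(CPM + 1), LS replicate 1 lay 0.33 above the LS mean for miR398, 0.49 for miR397 and 1.17 for miR408, and LS replicate 2 lay at -0.25, -0.32 and -0.89. For miR408, replicate 2 was the lowest library in the other treatments too, at -0.39 in HL, -0.41 in HS and -0.34 in LL. LS replicate 1 was also the library with the largest share of miRNA tags. Scaled to the summed miRNA tags, the highest LS library had 2.12 times as much miR408 as the lowest, against 4.75 times in CPM. For miR398 both scales gave a ratio of about 1.5 between the highest and the lowest LS library (1.50 in CPM and 1.49 on the miRNA tag scale), but on the second scale LS replicate 2 was the highest. Without LS replicate 1 the temperature change of miR398 was -1.74 and that of HS vs LS -1.92, and both were still called.

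The profile of miR398 over the 12 libraries was compared with those of the 161 other miRNAs that had at least 10 tags in every library. The measure was the root mean square difference in log2(CPM + 1) after subtracting each miRNA's own mean, for which miR398 itself varied by 0.95. Below, n-mir stands for a miRNA outside the known families, followed by its number in the deposited table. The nearest were miR860 (0.31), n-mir321 (0.36), miR530 (0.39), n-mir14 (0.44) and n-mir87 (0.48). Each of the 5 was lower at high temperature, with log2 changes of -1.81 for miR860, -1.46 for n-mir321, -1.62 for miR530, -1.46 for n-mir14 and -2.31 for n-mir87. Because likeness was measured over the same libraries, these changes describe the 5 miRNAs and test nothing further. miR860 averaged 3.99 CPM in HL and 5.32 CPM in HS, against 16.3 CPM in LL and 16.0 CPM in LS, so its LL and LS means were close to each other. miR530 averaged 8.17 CPM in HL and 10.6 CPM in HS, against 21.6 CPM in LL and 37.8 CPM in LS. Its means stood in the same order of treatments as those of miR398, as did those of n-mir321, n-mir14 and n-mir87. miR408 ranked 124 of the 161 with a difference of 1.09, larger than the variation of miR398 around its own mean. miR397, with a library of 7 tags, was below the count minimum of this comparison.

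**Figure D4:**
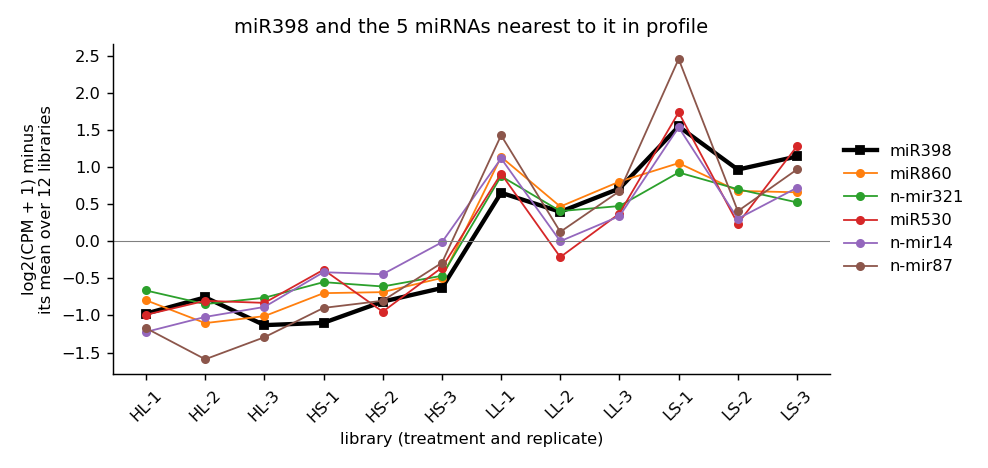
Log2(CPM + 1) of miR398 (black squares) and of its 5 nearest miRNAs, each minus its own mean over the 12 small RNA libraries, which stand along the horizontal axis by treatment and replicate; the lines only guide the eye. miR398 is below its mean in the 6 HL and HS libraries and above it in the 6 LL and LS libraries.

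The mRNA libraries were used to follow the genes that the study predicted as targets of the 3 miRNAs by psRobot or TargetFinder. These were 3 genes for miR398, 14 for miR397 and 14 for miR408, 31 in all, of which 29 were in the mRNA table and 27 had an FPKM (fragments scaled to transcript length and library depth) of at least 1 in at least 3 libraries. Names were not matched to these gene IDs here, so it is not said which of them encode copper proteins. The paper lists annotations for predicted targets of the miRNAs it found affected, miR398 among them, and these were not used here. Of the 27 genes tested, 2 were called higher at high temperature and 0 lower (over 2-fold in mean FPKM with an adjusted p under 0.05, limma with Benjamini-Hochberg adjustment over 18655 genes). Of all genes, 2.59% were called higher and 3.95% in either direction. In HL vs LL 1 predicted target was called higher (1.3% of all genes), in HS vs LS 2 (3.1%, 579 of 803 calls, against 483 of 781 with FPKM scaled to equal medians) and between long and short photoperiod 1 (0.102%), and 0 were called lower in each. Of all 18655 genes tested, 252 were called lower for temperature, 153 in HL vs LL and 224 in HS vs LS. At an unadjusted p under 0.05 (limma), 2 predicted targets were lower in HS vs LS and 0 for temperature, HL vs LL or photoperiod. In either direction 5, 4, 2 and 2 predicted targets reached that limit in these comparisons, in the same order. How many of all genes reached it is not given here. All of the predicted targets called were those of miR408.

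The 3 predicted targets of miR398 were not called in any of these comparisons. Their log2 changes with temperature were 0.15, 0.23 and 0.28, with a median of 0.23 against a median of 0.02 over all genes tested. Csa5M606530.1, predicted by both tools, had 36.8, 36.2 and 34.5 FPKM in HL and 32.0, 32.1 and 36.5 FPKM in HS, against 33.4, 26.2 and 31.6 FPKM in LL and 25.9, 35.3 and 36.3 FPKM in LS. The temperatures overlapped, and the log2 change of 0.15 had an interval of -0.05 to 0.35 (adjusted p = 0.278, limma). It was 0.07 without LS replicate 1, 0.10 without LL replicate 2 and 0.08 with FPKM scaled to equal medians. For this gene the study's list places the predicted site on the opposite strand of the transcript. The strand of the other predicted sites is not given here. Csa6M431770.1, also predicted by both tools, averaged 33.8 ± 5.83 FPKM in HL and 35.4 ± 1.80 FPKM in HS, against 26.7 ± 7.39 FPKM in LL and 30.3 ± 1.64 FPKM in LS (SD, n = 3 each). Its log2 change of 0.28 had an interval of 0.02 to 0.54 and an unadjusted p of 0.0348, and after adjustment it did not pass (adjusted p = 0.106, limma). With FPKM scaled to equal medians the change of Csa6M431770.1 was 0.22 (unadjusted p = 0.0976, limma). It was 0.20 to 0.38 with 1 library left out, the lower end without LL replicate 2. The intervals of both genes leave room for a rise of up to 0.54 on the log2 scale, next to the fall of 1.83 in the tags named miR398. Which arm of the hairpin these targets were predicted for was not examined here. The values may therefore not set a guide strand against its own targets.

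Csa7M017710.1, predicted for miR408 by both tools, was the predicted target with the largest temperature change. It had 11.4, 17.0 and 8.23 FPKM in HL and 5.36, 6.94 and 6.44 FPKM in HS, against 3.72, 3.48 and 4.93 FPKM in LL and 1.20, 1.62 and 1.10 FPKM in LS. Every warm library lay above every cool library, as for 5.58% of the genes tested. Mean FPKM was 3.45-fold higher at high temperature (log2 change of FPKM + 1 1.50 ± 0.17, SE; adjusted p = 8.86e-05, limma), 3.02-fold in HL vs LL (adjusted p = 0.00711) and 4.78-fold in HS vs LS (adjusted p = 0.000952). It was also 2.15-fold higher in the long photoperiod (log2 change of FPKM + 1 0.97, adjusted p = 0.0179, limma). This call was lost on the ratio without HL replicate 2 (log2 change 0.85, adjusted p = 0.0233, limma). It was also lost without HS replicate 1, LL replicate 3 or LS replicate 3, where the log2 change was 0.92, 0.91 and 0.94. There the adjusted p was just over the limit, at 0.05002, 0.0542 and 0.0506 (limma). The interaction of -0.31 was not called (adjusted p = 0.853).

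Csa2M302180.1, predicted for miR408 by psRobot alone, had 4.65, 4.80 and 3.02 FPKM in HL and 3.72, 4.55 and 4.64 FPKM in HS, against 2.39, 2.22 and 2.28 FPKM in LL and 1.63, 2.22 and 1.62 FPKM in LS. Again the warm libraries all lay above the cool ones. The ratio of mean FPKM was 2.05 for temperature (adjusted p = 0.00331, limma) and 2.36 in HS vs LS (adjusted p = 0.0124), and 1.81 in HL vs LL, which was under 2-fold (adjusted p = 0.122). The temperature ratio was close to the threshold. It fell below 2-fold without HL replicate 1, without HL replicate 2 and with FPKM scaled to equal medians, and the call was then lost. The log2 change of FPKM + 1, a different measure from that ratio, was 0.73, 0.72 and 0.72 in these settings. It was 0.77 in the main fit. The remaining 10 tested targets of miR408 and the 12 tested targets of miR397 were not called for temperature, and the median temperature log2 change was 0.14 over the miR408 targets and 0.00 over those of miR397, against 0.02 over all genes tested.

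**Figure D5:**
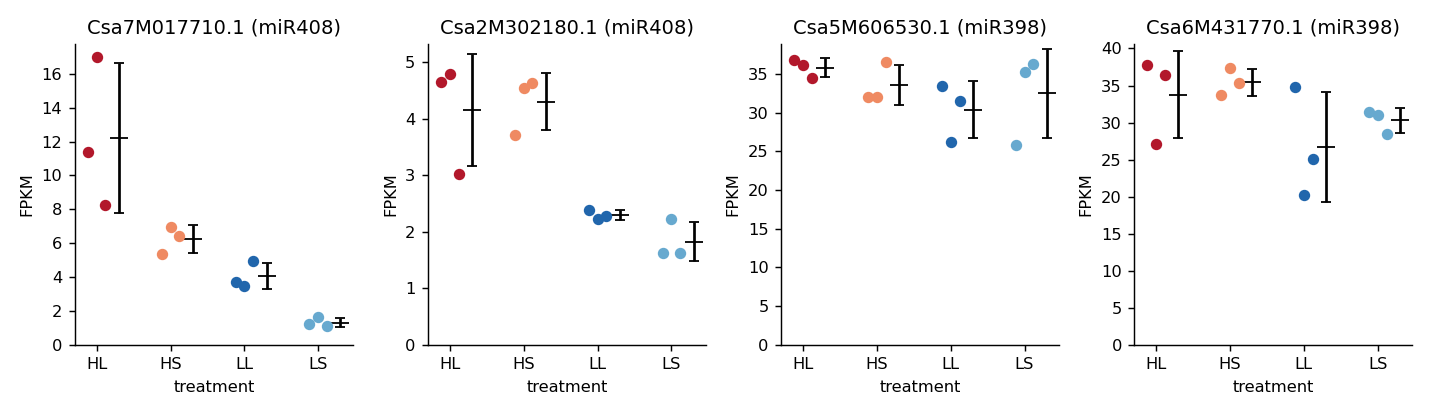
FPKM of 2 predicted targets of miR408 and 2 of miR398 in each mRNA library (points), by treatment, with the mean and SD of 3 replicates beside each group; each panel has its own vertical scale, which starts at 0. For Csa7M017710.1 and Csa2M302180.1 the HL and HS points all lie above the LL and LS points, and for Csa5M606530.1 and Csa6M431770.1 they overlap.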

How the data were processed

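Shoot apical tissue of cucumber was profiled by small RNA, mRNA and degradome sequencing. The authors deposited raw tag counts for each mature miRNA, after keeping tags of 18 to 30 bases and adding up those that matched a mature sequence, with mismatches allowed only near its ends. The deposited mRNA values are FPKM computed by the authors, for which the submitters' processing notes name Bowtie and RSEM. Their versions are not given in the sources used here.

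The authors' clean reads per library served as library sizes. Counts were fitted with edgeR 4.0.16 (quasi-likelihood) in a single model of the 4 treatments, for the 248 of 249 miRNAs with at least 10 summed counts, and called over 2-fold with an unadjusted p under 0.001. Standard errors were taken as the size of a change over the square root of F. For FPKM, limma 3.58.1 with a trended variance was applied to log2(FPKM + 1), which understates changes of low genes. Genes needed an FPKM of 1 or more in 3 or more libraries (18655 of 21221), and a call needed a 2-fold ratio of mean FPKM with an adjusted p under 0.05. Temperature and photoperiod effects average over the other factor. Tests are two-sided and p-values were adjusted by Benjamini-Hochberg. R 4.3.3, Python 3.11.15 and RNAfold 2.7.2 were used, and the fits were tested on simulated data.

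The miRNAs, gene lists and tests were chosen with earlier results of these data known. Named were the 3 miRNAs, the 5 nearest miRNAs by profile, and predicted targets called in a comparison or predicted for miR398 by both tools. The rule also took targets of miR397 and miR408 predicted by both tools, which are given as counts because no names were matched to the gene IDs. For the same reason copper genes and shoot apex markers were not looked up, so the tissue label was not checked. The degradome library, mixed from the 4 treatments, was not used here. Alternatives were TMM scaling, the summed miRNA tags as library size, DESeq2 1.42.0, no filter or a stricter one, an adjusted p limit, FPKM scaled to equal medians, a pseudocount of 0.1, a replicate block, and each library left out in turn. The number of per-sample columns left out is 0.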

Additional observations from a re-analysis of the deposited data

How the results depend on the processing

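The temperature, HL vs LL and HS vs LS calls of miR398 held under all 19 alternatives, with log2 changes of -1.89 to -1.66 for temperature, -1.67 to -1.38 for HL vs LL and -2.22 to -1.87 for HS vs LS. TMM scaling moved the median of all miRNAs by 0.16 for temperature and 0.21 for HS vs LS, and the summed miRNA tags moved it by 0.37 for photoperiod and 0.48 for HL vs HS. With the summed tags, the photoperiod change of miR398 was 0.0295, HL vs HS was 0.43 for miR398 and 0.36 for miR397, and miR408 had 0.11 for temperature and 0.31 for LL vs LS. miR408 also turned sign for temperature with TMM (0.17) and DESeq2 (0.12), for HS vs LS with TMM (0.00908) and for LL vs LS with DESeq2 (0.00833). Leaving out 1 library at a time gave HL vs HS changes of -0.23 to 0.00384 for miR398, the upper end without HS replicate 3, and -0.37 to 0.12 for miR397. For miR397 the range was -0.11 to 0.33 for photoperiod and -0.11 to 0.78 for LL vs LS. For miR408 it was -0.21 to 0.43 for temperature, -0.0791 to 0.46 for HL vs LL, -0.63 to 0.65 for HS vs LS, -0.11 to 0.53 for photoperiod, -0.54 to 0.74 for LL vs LS and -0.43 to 0.85 for the interaction. None of these sign changes concerned a call, and the cause was not tested.

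Predicted targets called higher at high temperature numbered 1 with FPKM scaled to equal medians, where Csa2M302180.1 was no longer called, and 1 to 2 with 1 library left out, and those called for photoperiod 0 to 1. The HS vs LS change of Csa5M606530.1 was -0.0372 with equal medians and ranged from -0.0943 to 0.14 with 1 library left out. The miRNAs called in HL vs LL numbered 10, but 6 with the summed tags, 18 with an adjusted p limit and 4 to 15 with 1 library left out, and in HS vs LS 10, but 20 with the adjusted limit. Those called in HL vs HS numbered 2, and 1 to 3 with 1 library left out, those in LL vs LS and for the interaction 0, and up to 1, and genes called for photoperiod 58, and 35 to 72.

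Replicate numbers recur in every treatment. Same-numbered small RNA libraries deviated together, with a mean correlation of 0.26 across miRNAs (highest 0.76). The mean was -0.12 for differently numbered pairs. Each treatment's mean was subtracted first, which largely fixes the second value from the first, so it adds no separate evidence. Of the 18 same-numbered pairs 14 were over 0.1, and the lowest was -0.07. Whether the numbers mark a shared batch of these libraries was not tested. The main fit did not use them, and the replicate block was run as an alternative. For the mRNA libraries the means were 0.02 and -0.01, with 1 of 18 pairs over 0.1. With the replicate block, the miR398 changes were -1.83 for temperature, -1.56 for HL vs LL and -2.10 for HS vs LS, miR408 had 0.0789 for temperature, no call on the 3 miRNAs or the named genes changed, and 19 miRNAs were called for temperature, against 18 without it. The counts of miR397 limit what could be detected for it.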
